A study of Sus scrofa with 22 samples.

Results

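SOD2, GPX3, GSTA4 and ALDH2 are 4 genes that remove superoxide, peroxides and reactive aldehydes. Their members on the porcine array were all probe sets annotated to 1 of these symbols alone, which gave 5 probe sets of 23999 measured, for 4 genes of 6765 named. SOD2, GPX3 and ALDH2 had 1 probe set each. GSTA4 had 2, of which the dimmer had 0, 0, 1 and 2 arrays above background at the 4 stages in order of age, so the brighter one stands for the gene. The 4 genes were chosen by their array signals, which were known to differ between these stages, so their values are a description and carry no test.

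The study compared transcript levels in offspring of German Landrace gilts fed an adequate protein diet, written AP in the labels, in gestation. The groups were 94 days after conception (94 dpc, 6 animals), 1 day after birth (1 dpn, 6 animals), 28 days after birth (28 dpn, 6 animals) and 188 days after birth (188 dpn, 4 animals). All animals shared that diet, and no other agent or genotype was labelled. Each stage drew on 3 gilts. No label ties an animal to its mother, so the spread between animals may be shared within litters, which p-values over animals leave out.

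The sample labels give liver as the tissue and the title of the series gives muscle. Of the 30 brightest named genes, 8 were on a list of skeletal muscle genes and 0 on a list of liver genes. The summed signal of 16 of 20 listed muscle genes was 375480 to 483821 at 94 dpc, 497140 to 686490 at 1 dpn, 933032 to 1068360 at 28 dpn and 902774 to 1033459 at 188 dpn. That of 16 of 17 listed liver genes was 7981 to 58921, 2577 to 12346, 2656 to 14016 and 2318 to 7256 in the same order. The pancreas list (8 of 16 genes) summed to 2953 to 13439, 3884 to 20549.8, 6594 to 10700.2 and 11882 to 17773, and the erythroid list (5 of 12) to 1050.1 to 1763, 585 to 1950.2, 882 to 2676 and 678 to 795. On average most of the pancreas sum was 1 gene, AMY2, with means of 7555, 6956, 7624 and 14941. CELA1, INS and GCG had means below background at every stage, and CPA1 and CLPS above it at every stage. At 1 dpn CPA1 averaged 1472 ± 3035 and CLPS 608 ± 1208, with an SD larger than the mean. CPB1 and CELA2A had means above background at some stages. The labelled tissue therefore went against its markers, and the samples are described here by their stage only.

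Some arrays stood apart. Transcripts are copied from their 3′ end, and the ratio of 5′ to 3′ signal of GAPDH was 0.731 to 1.26 on all arrays of 94 dpc, 28 dpn and 188 dpn. At 1 dpn it was 1.14 and 1.15 on replicates 1 and 6, and 0.332, 0.223, 0.261 and 0.140 on replicates 2, 3, 4 and 5. Results of the 4 genes at 1 dpn are therefore given for all 6 arrays, for the 2 even arrays and for the 4 low ones. Those of other genes are from all 6 arrays unless the even arrays are named. Of the 6765 genes, 31.0% did not overlap between the low and the even arrays. At 188 dpn, replicate 4 lay at least log2 1 above the other 3 arrays in 187 genes, as described with GPX3 below.

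Mitochondria leak superoxide, which SOD2, the manganese superoxide dismutase of the matrix, converts to hydrogen peroxide. Glutathione peroxidases reduce peroxides with glutathione, and GPX3 is the secreted selenoprotein of blood plasma, known to be made largely by the kidney. Peroxidised lipids break down to aldehydes such as 4-hydroxynonenal. GSTA4 joins that aldehyde to glutathione, and ALDH2, a mitochondrial aldehyde dehydrogenase, oxidises acetaldehyde and lipid aldehydes to acids. Skeletal muscle has much oxidative metabolism and is a known site of these reactions.

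SOD2 was low at 94 dpc and several times higher at each later stage. Its signal at 94 dpc had a lowest value of 811, a median of 1181 and a highest of 1267. At 1 dpn these values were 3298, 8341 and 14280.1, at 28 dpn 7363, 10203 and 11929.9, and the 4 animals of 188 dpn had 7315, 7474, 8899 and 9648. The 94 dpc arrays lay below all others, and the 3 later stages overlapped one another. The mean was 1119 ± 161 at 94 dpc, 8288 ± 4341 at 1 dpn, 9761 ± 1651 at 28 dpn and 8334 ± 1129 at 188 dpn (SD, n = 6, 6, 6 and 4). In order of level the stages ran 94 dpc, 1 dpn, 188 dpn and 28 dpn, and no neighbours among the last 3 differed beyond their spread.

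On the log2(signal + 16) scale SOD2 was higher at 1 dpn than at 94 dpc by 2.69 (SE 0.28), a 6.45-fold difference, and higher at 188 dpn than at 94 dpc by 2.88 (SE 0.31). The differences were 0.41 (SE 0.28) for 28 dpn minus 1 dpn and -0.22 (SE 0.31) for 188 dpn minus 28 dpn. At 1 dpn SOD2 divided by array. The low arrays had 8307 to 14280.1 and the even arrays 3298 to 3685, without overlap. With the even arrays alone SOD2 was 1.64 higher at 1 dpn than at 94 dpc and 1.46 higher at 28 dpn than at 1 dpn, against 3.21 and -0.11 with the low arrays alone. All 6 arrays of 1 dpn lay above the highest 94 dpc value. In bulk tissue, fewer cells of a type and less RNA per cell cannot be told apart. The muscle marker sum was also higher at each later stage than at 94 dpc, and its part in the SOD2 values was not tested.

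**Figure D1:**
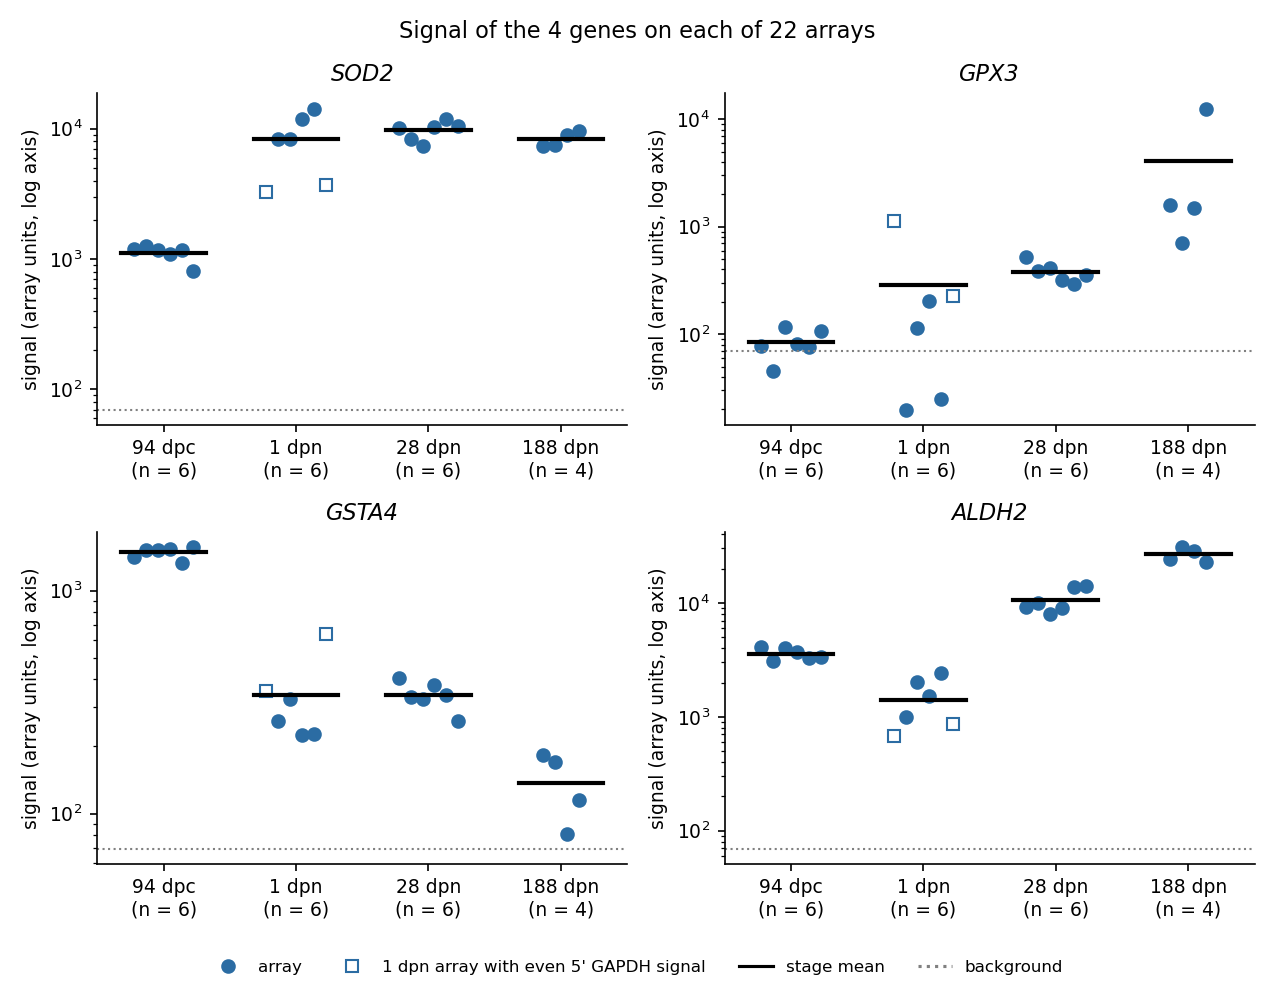
Signal of SOD2, GPX3, GSTA4 and ALDH2 on each of 22 arrays (y axis, array units, log scale) at the 4 stages in order of age (x axis). Points are arrays, open squares the 2 arrays of 1 dpn with even 5′ GAPDH signal, bars stage means and the dotted line the background of 69.7. SOD2 is lowest at 94 dpc, GSTA4 is highest there, ALDH2 is lowest at 1 dpn and highest at 188 dpn, and GPX3 has 1 array of 188 dpn at 12559.

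GPX3 was near background before birth and highest at 188 dpn, with the widest spread of the 4 genes. At 94 dpc its lowest signal was 45.2, its median 79.7 and its highest 116, and 5 of 6 arrays exceeded the background of 69.7. At 1 dpn the even arrays had 1137 and 227, and the low arrays had 19.8, 115, 204 and 25.2. The 1 dpn values thus ran from below background to above every 28 dpn array. At 28 dpn the lowest, median and highest were 291, 372 and 526. The 188 dpn animals had 1588, 704, 1502 and 12559. All 4 lay above all 28 dpn and 94 dpc arrays, and replicate 4 alone was several times the next highest.

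The mean GPX3 signal was 84.0 ± 25.3 at 94 dpc, 288 ± 425 at 1 dpn, 382 ± 83.0 at 28 dpn and 4088 ± 5661 at 188 dpn (SD, n = 6, 6, 6 and 4). Without replicate 4 the 188 dpn mean was 1265 ± 487 (SD, n = 3), and without replicate 1 the 1 dpn mean was 118 ± 97.0 (SD, n = 5). In order of level the stages kept the order of age, but 1 dpn overlapped every other stage. GPX3 was higher at 188 dpn than at 28 dpn by log2 2.47 (SE 0.74), and by 1.62 without replicate 4. It was higher at 188 dpn than at 94 dpc by log2 4.48 (SE 0.74), a 22.3-fold difference, and by 3.64 without replicate 4. The difference of 1 dpn minus 94 dpc was log2 0.64 (SE 0.66) with all arrays, 0.05 without replicate 1 of 1 dpn, 2.45 with the even arrays and -0.27 with the low ones. That of 28 dpn minus 1 dpn was 1.37 (SE 0.66), 1.96 without that array, and -0.44 and 2.28 with the even and the low arrays. The direction of GPX3 around birth therefore differed between the 2 sets of 1 dpn arrays.

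Replicate 4 of 188 dpn was also high in other genes. GPX3 ranked 14 of 6765 genes by its log2 gap over the highest of the other 3 arrays. The genes named next were chosen after these values were seen. MIOX, an inositol oxygenase known mainly from kidney, had 7410.1 on replicate 4, against 698 on replicate 1, 68.8 on replicate 2 and 95.5 on replicate 3. FBP1 and PCK1, enzymes of glucose synthesis in kidney and liver, had 6097 and 9175 on replicate 4. On the other 3 arrays the highest values were 705 for FBP1 and 1217 for PCK1, both on replicate 1. The list of kidney markers had 1 of 9 genes measured, the tubule receptor LRP2, with 1819.9 on replicate 4, 271 on replicate 1, 74.6 on replicate 2 and 36.9 on replicate 3.

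Replicate 1, second highest for each of these 4 genes, had the second highest GPX3 signal as well. On replicates 2 and 3, where MIOX and LRP2 were at most 95.5, GPX3 was 704 and 1502, above the 28 dpn maximum of 526. With replicates 1 and 4 both left out, a choice made after the values were seen, GPX3 was higher at 188 dpn by log2 1.42 than at 28 dpn and by 3.43 than at 94 dpc. Adipocyte markers, of which 8 of 13 were measured and PCK1 was one, summed to 17433 on replicate 4 and to 7209 to 11568 on the other 3. Without PCK1 the sums were 8257 on replicate 4 and 7093 to 10350.2 on the others. The liver marker sum was 5086 on replicate 4, within the 2318 to 7256 of its stage. Of its 16 genes, 3 were highest on replicate 4: APOC3 with 1679.9 there and at most 743 on the other arrays, TF with 1316 and at most 1134, and TTR with 218 and at most 217. Albumin, ALB, had 366 on replicate 4 and 434 to 2161 on the others. The part of kidney-type transcripts in the replicate 4 signal of GPX3 was not tested.

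**Figure D2:**
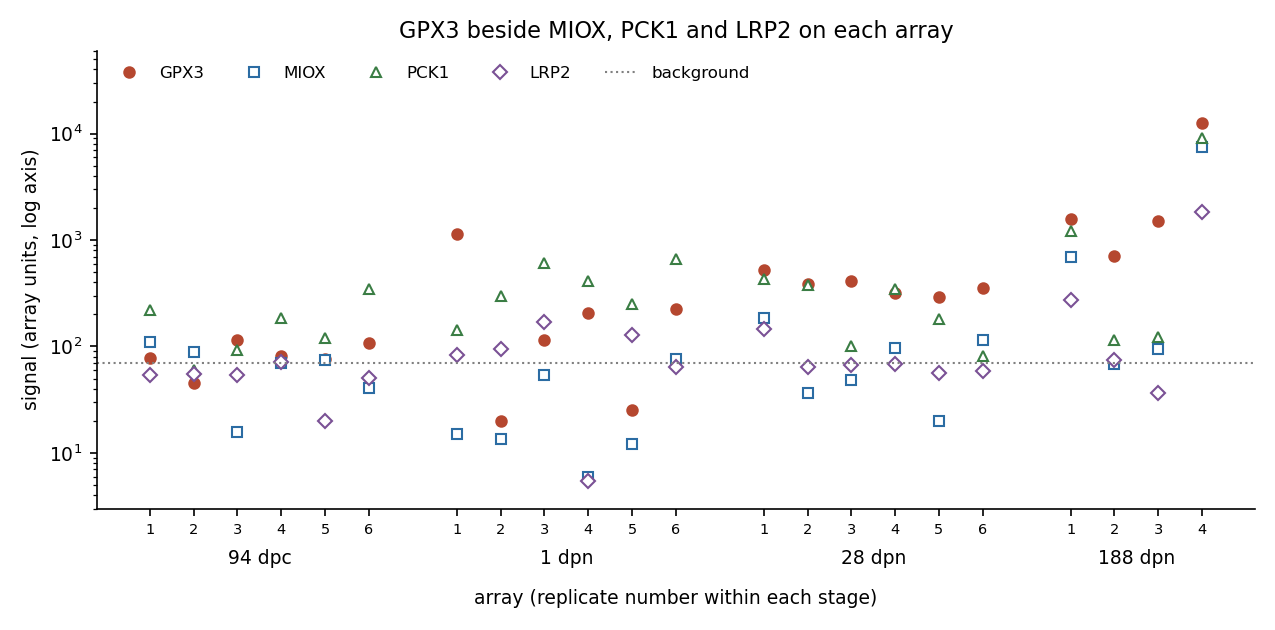
Signal of GPX3, MIOX, PCK1 and LRP2 on each array (y axis, array units, log scale; x axis, replicate number within each stage). All 4 genes peak on replicate 4 of 188 dpn and are second highest of that stage on replicate 1. On replicates 2 and 3 GPX3 is at 704 and 1502, while the other 3 genes are at most 122.

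GSTA4 ran the other way, highest before birth and lowest in the oldest animals. The 94 dpc arrays had a lowest signal of 1334, a median of 1522 and a highest of 1563. At 1 dpn these were 225, 292 and 639, at 28 dpn 260.4, 337 and 405, and the 188 dpn animals had 184, 171, 80.9 and 115. The 94 dpc arrays lay above all others and the 188 dpn arrays below all others, while 1 dpn and 28 dpn overlapped. Means were 1483 ± 89.7 at 94 dpc, 339 ± 157 at 1 dpn, 340.4 ± 49.1 at 28 dpn and 138 ± 48.2 at 188 dpn (SD, n = 6, 6, 6 and 4).

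GSTA4 was lower at 1 dpn than at 94 dpc by a log2 difference of -2.17 (SE 0.22), 4.50-fold, lower at 188 dpn than at 28 dpn by -1.26 (SE 0.25), and lower at 188 dpn than at 94 dpc by -3.34 (SE 0.25), 10.1-fold. The difference of 28 dpn minus 1 dpn was 0.09 (SE 0.22). At 1 dpn the low arrays had 225 to 326 and the even arrays 355 to 639, without overlap. The difference of 1 dpn minus 94 dpc was -1.60 with the even arrays and -2.46 with the low ones, and that of 28 dpn minus 1 dpn was -0.48 and 0.37. The dim GSTA4 probe set had means of 24.1, 26.0, 44.3 and 51.5 in order of age, all below background, so it neither shows nor contradicts this order.

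Markers of other cell types also differed between stages. The summed signal of 11 of 12 endothelial genes was 16159 to 19073 at 94 dpc, 5526 to 7229.6 at 1 dpn, 9632 to 14191 at 28 dpn and 4254 to 5876 at 188 dpn. Like GSTA4 it had its highest median at 94 dpc and its lowest at 188 dpn, and unlike GSTA4 it did not overlap between 28 dpn and 1 dpn. The liver sum had its highest values at 94 dpc as well, 7981 to 58921. On average most of it there was APOA1, AHSG and SERPINA1, with means of 8823, 7150 and 3970. No other gene of the liver list was called at 188 dpn against 94 dpc. ALB averaged 291 at 94 dpc and 904 at 188 dpn. The part of either cell type in the GSTA4 values was not tested.

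ALDH2 had its lowest values just after birth and its highest in the oldest animals. At 94 dpc its lowest signal was 3078, its median 3529.6 and its highest 4095. At 1 dpn these were 681, 1254 and 2416, and at 28 dpn 7999, 9592 and 13921. The 188 dpn animals had 24341, 30723, 28688 and 22990.3. No stage overlapped any other. Means were 3592 ± 423 at 94 dpc, 1418 ± 695 at 1 dpn, 10672 ± 2596 at 28 dpn and 26685 ± 3627 at 188 dpn (SD, n = 6, 6, 6 and 4), so the order of level was 1 dpn, 94 dpc, 28 dpn and 188 dpn.

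ALDH2 was lower at 1 dpn than at 94 dpc by a log2 difference of -1.47 (SE 0.25), 2.77-fold. It was higher at 28 dpn than at 1 dpn by 3.01 (SE 0.25), 8.05-fold, and at 188 dpn than at 28 dpn by 1.34 (SE 0.28), 2.54-fold. Between the ends of the series it was higher at 188 dpn than at 94 dpc by 2.89 (SE 0.28). On the low arrays of 1 dpn ALDH2 was 989 to 2416 and on the even arrays 681 to 867, again without overlap. With the even arrays the differences were -2.19 for 1 dpn minus 94 dpc and 3.73 for 28 dpn minus 1 dpn, and with the low arrays -1.11 and 2.65, so the dip held its direction on both sets. The macrophage marker sum (9 of 13 genes) also had its lowest median at 1 dpn, at 2192, with 4266 at 94 dpc, 8034 at 28 dpn and 2982 at 188 dpn, where ALDH2 was highest. Its part was not tested.

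Counts of the 4 genes are given beside the share of all 6765 genes. At 1 dpn against 94 dpc SOD2 lay above without overlap (10.1% of genes did so) and GSTA4 and ALDH2 below (12.8%), 22.9% in either direction, while 41.2% were past an adjusted p of 0.05. At 28 dpn against 1 dpn ALDH2 alone did not overlap and lay above (6.16% above, 5.28% below, 11.4% in all, and 28.0% past the threshold). At 188 dpn against 28 dpn GPX3 and ALDH2 lay above (7.76%) and GSTA4 below (11.7%), 19.5% in all, with 16.0% past the threshold. At 188 dpn against 94 dpc SOD2, GPX3 and ALDH2 lay above (19.4%) and GSTA4 below (26.5%), 45.9% in all, with 45.4% past the threshold. The members were chosen for such differences, so their counts say nothing beyond the description. Comparisons that share a stage share its arrays.

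**Figure D3:**
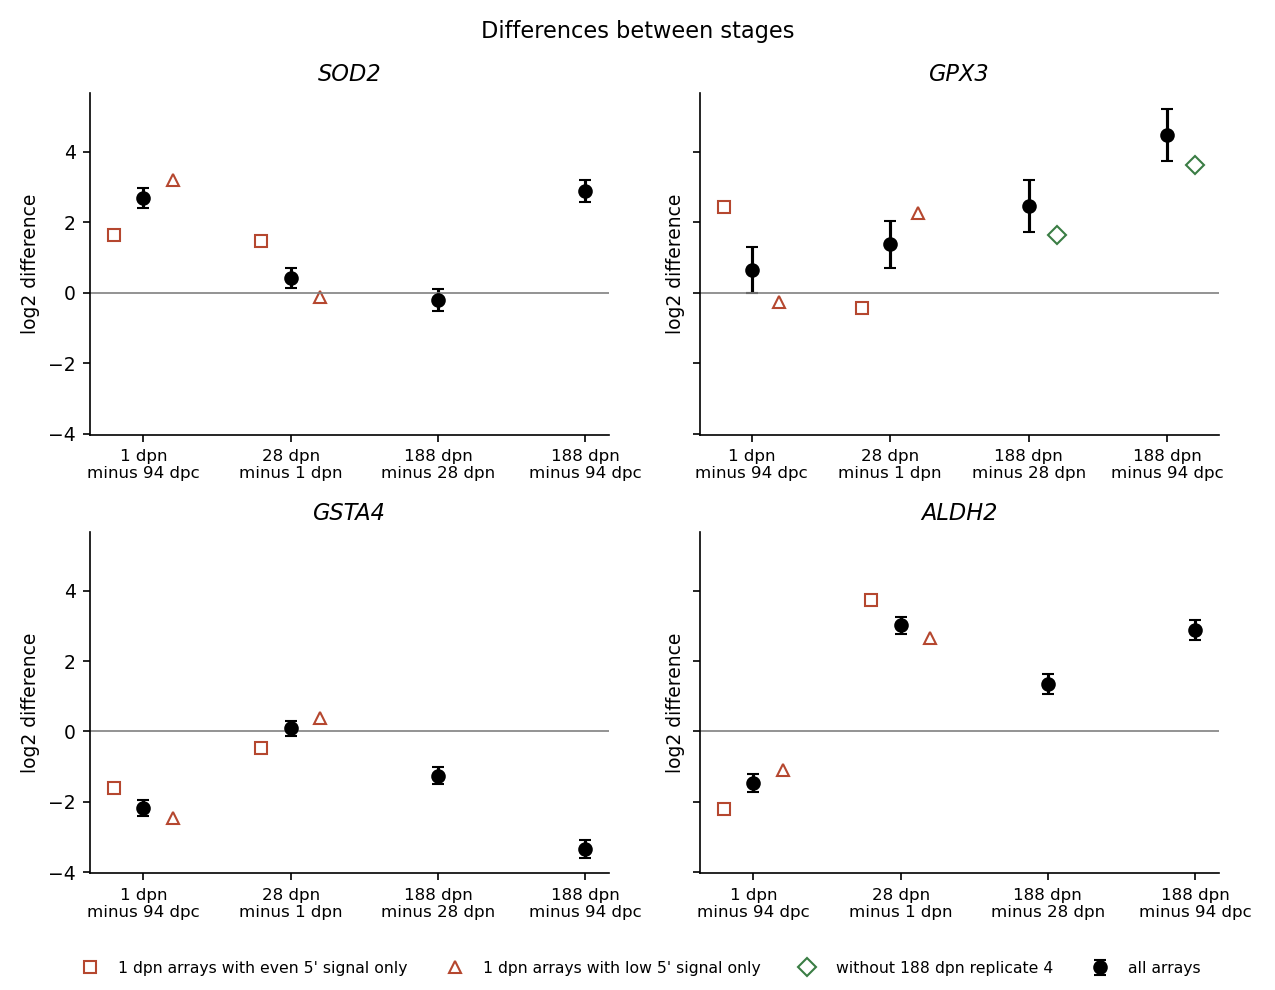
Log2 differences between stages (y axis, log2(signal + 16), later minus earlier stage) for the 4 genes. Black points are all arrays with the SE of the fit, open squares and triangles use the even or the low arrays of 1 dpn, and diamonds for GPX3 leave out replicate 4 of 188 dpn. GPX3 changes sign between the 2 sets of 1 dpn arrays in both comparisons with 1 dpn (2.45 and -0.27, then -0.44 and 2.28), while ALDH2 keeps its sign in both.

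Other genes of these pathways were read from 8 lists of 135 genes, of which 83 were measured and the 4 members were left out. They were tested with limma, adjusted over all 23999 probe sets. Of the 83, 30 rose and 15 fell at 1 dpn against 94 dpc (background 17.3% higher and 23.8% lower), with a median log2 difference of 0.36 against -0.05 over all genes. At 28 dpn against 1 dpn 15 rose and 17 fell (15.1% and 12.9%; medians -0.01 and 0.04). At 188 dpn against 28 dpn 6 rose and 12 fell (5.03% and 11.0%; medians -0.01 and -0.10), and at 188 dpn against 94 dpc 26 rose and 12 fell (18.4% and 27.0%; medians 0.25 and -0.08). The 8 lists share some genes, so their separate counts below are not independent. The shares of all genes given here are also the background for those counts. The balance of rises and falls among the 83 moved with scaling. With each array centred on its median, which shifted the median probe set to log2 0.18, -0.09, 0.08 and 0.20, against -0.08, 0.10, -0.12 and -0.07 as deposited, the counts were 41 and 7, 11 and 23, 9 and 7, and 36 and 9. With replicates 1 and 4 of 188 dpn left out, 9 genes in place of 18 passed at 188 dpn against 28 dpn.

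**Figure D4:**
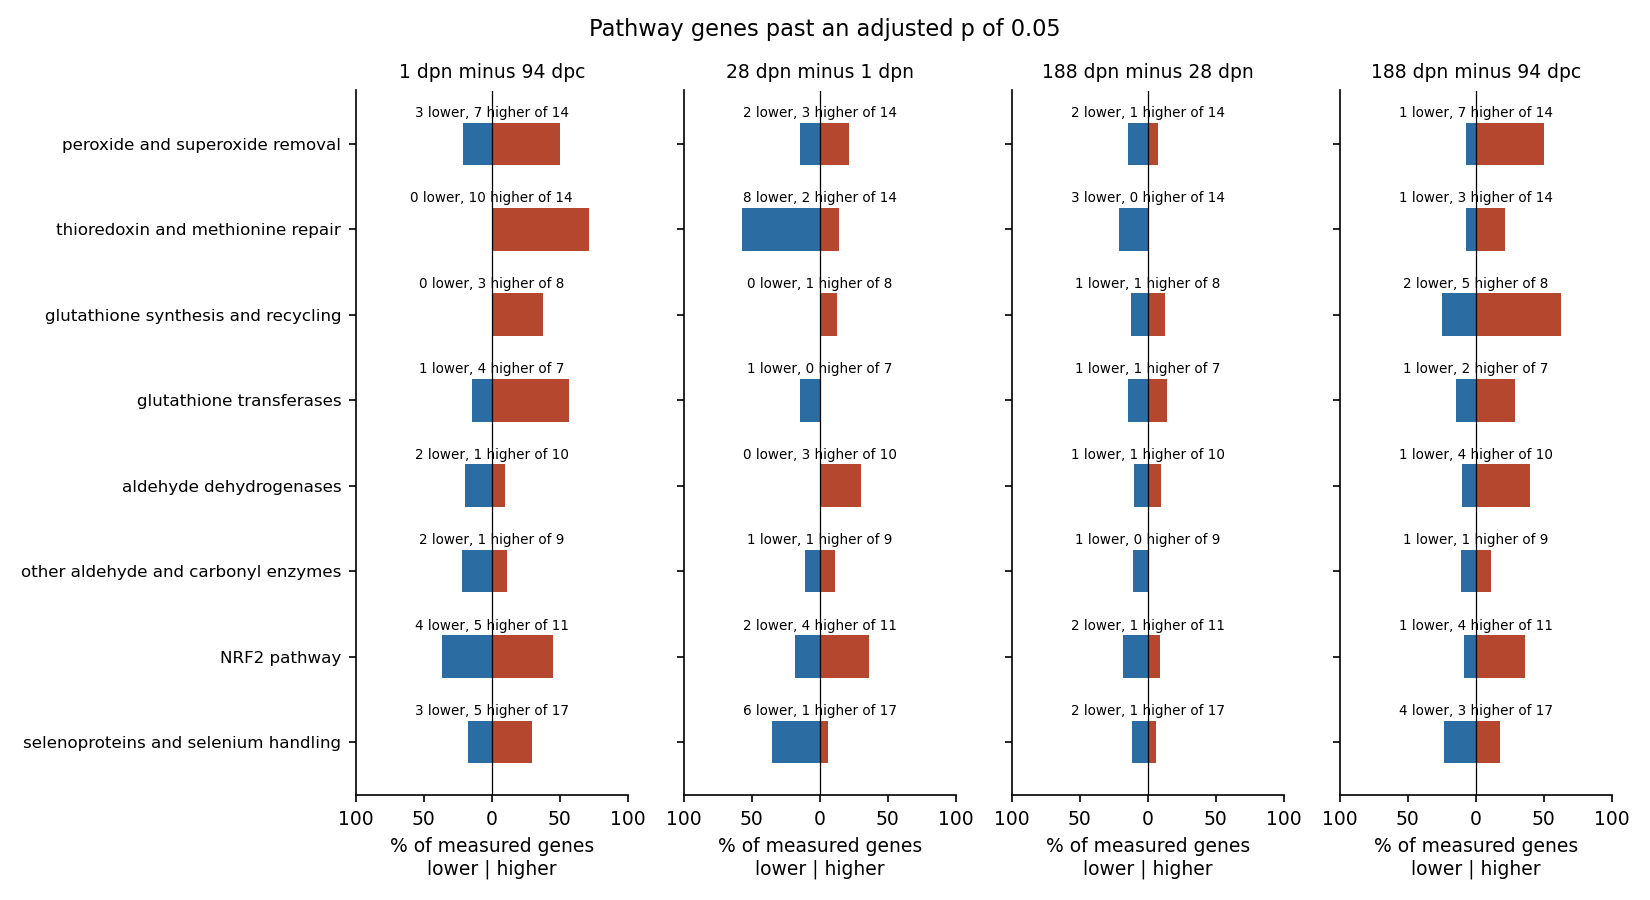
Share of the measured genes of each list (x axis, %) that were lower (blue, left) or higher (red, right) at an adjusted p under 0.05 in the 4 comparisons, with counts above each bar. The thioredoxin list has 10 of 14 genes higher at 1 dpn against 94 dpc and 8 of 14 lower at 28 dpn against 1 dpn. Over all genes 17.3% were higher in the former comparison and 12.9% lower in the latter. Some genes are on several lists.

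Among 14 genes of superoxide and peroxide removal, 7 rose and 3 fell at 1 dpn against 94 dpc with a list median of 0.52, but 3 rose and 3 fell after quantile normalization, and 4 rose and 1 fell with the even arrays. SOD1, the cytosolic partner of SOD2, averaged 8951 ± 1431 at 1 dpn and 5298 ± 398 at 94 dpc (log2 0.74, SE 0.16, adjusted p = 0.000835, and 0.0602 after quantile normalization). Catalase, CAT, which splits hydrogen peroxide, averaged 8841 ± 3438 at 1 dpn and 3214 ± 419 at 94 dpc (log2 1.36, SE 0.25, adjusted p = 0.000195), but was not called with the even arrays (log2 0.58, adjusted p = 0.115). CAT was higher at 188 dpn too, with 8805 ± 2654 against 3214 ± 419 at 94 dpc (log2 1.40, SE 0.28, adjusted p = 0.000309). The extracellular dismutase SOD3 had a mean of 171 ± 41.2 at 188 dpn and a mean below background, 17.4 ± 4.53, at 94 dpc (adjusted p = 1.53e-05).

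The glutathione peroxidases related to GPX3 differed from it in course, though GPX1 was also higher at 188 dpn than at 94 dpc. GPX7, of the endoplasmic reticulum, fell to 250 ± 61.2 at 188 dpn, against 2522 ± 246 at 94 dpc (log2 -3.28, SE 0.18, adjusted p = 2.51e-11), and a further GPX7 probe set gave -3.30. A dim GPX7 probe set, with a mean signal of 61.4, gave -0.49 and was not called (adjusted p = 0.45). GPX2 rose to 805 ± 694 at 1 dpn, against 166 ± 44.6 at 94 dpc (log2 1.86, SE 0.46, adjusted p = 0.00302), and fell to 162 ± 69.2 at 188 dpn, against 1091 ± 892 at 28 dpn (log2 -2.39, SE 0.51, adjusted p = 0.00345). GPX4, which protects membrane lipids, had log2 differences of 0.19, 0.15, -0.02 and 0.32 in the 4 comparisons, none past the threshold (adjusted p from 0.135 to 0.968). GPX1 passed narrowly at 1 dpn against 94 dpc (log2 0.85, adjusted p = 0.0417), and leaving out any of 9 of 12 arrays in turn ended the call. It passed narrowly at 188 dpn against 94 dpc as well (log2 0.90, adjusted p = 0.0481), where leaving out any of 8 of 10 arrays ended the call.

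Peroxiredoxins, which reduce peroxides with thioredoxin, also differed among themselves. The mitochondrial PRDX3 rose to 20533 ± 1511 at 28 dpn, against 7725 ± 2926 at 1 dpn (log2 1.48, SE 0.18, adjusted p = 6.32e-06), and stood at 18316 ± 1387 at 188 dpn, against 5059 ± 527 at 94 dpc (log2 1.86, SE 0.21, adjusted p = 2.35e-07). PRDX6 rose at 28 dpn against 1 dpn by log2 1.07 (SE 0.23, adjusted p = 0.00158), and PRDX1 fell by -0.76 (SE 0.22, adjusted p = 0.0148, and 0.0734 when only these stages were fitted). PRDX5 fell at 1 dpn against 94 dpc (log2 -0.78, adjusted p = 0.00422, and 0.0662 with the even arrays) and rose at 188 dpn against 28 dpn (0.75, adjusted p = 0.0293, and 0.132 without replicate 4 of 188 dpn).

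**Figure D5:**
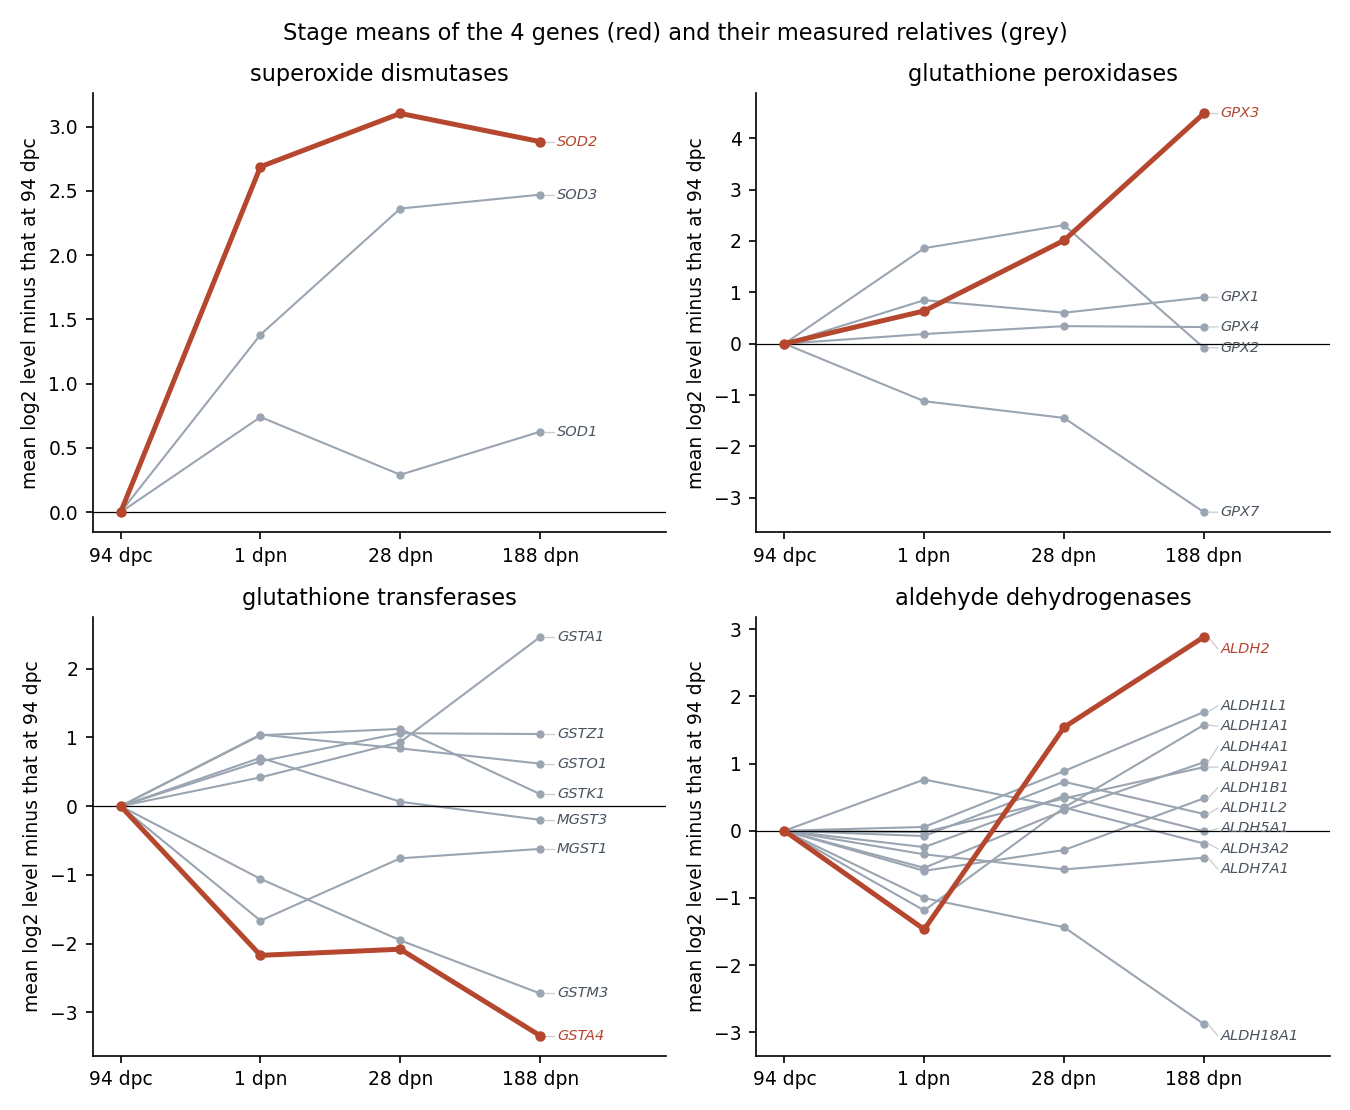
Mean log2 level of each gene at each stage minus its own mean at 94 dpc (y axis) against stage (x axis), without error bars. The 4 genes are red and their measured relatives grey. The 4 were chosen for differences between stages, so their place among relatives is a description. GSTA4 lies below all 7 measured transferases at each stage after 94 dpc, ALDH2 below all 10 aldehyde dehydrogenases at 1 dpn and above them at 28 and 188 dpn, and GPX3 above all 4 peroxidases at 188 dpn. SOD3 had a mean below background at 94 dpc, so its line understates its change.

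The list of thioredoxin and methionine sulfoxide repair had 10 of 14 genes higher and 0 lower at 1 dpn against 94 dpc (median 0.64; again 10 and 0 with the even arrays), and 2 higher and 8 lower at 28 dpn against 1 dpn (median -0.72; 1 and 2 with the even arrays). NNT, which makes mitochondrial NADPH, rose to 7411 ± 3362 at 1 dpn, against 1265 ± 125 at 94 dpc (log2 2.39, SE 0.26, adjusted p = 3.89e-07). GLRX5, of mitochondrial iron-sulfur assembly, rose to 6367 ± 2649, against 2083 ± 178 (log2 1.50, SE 0.23, adjusted p = 2.8e-05). MSRB1, a selenoprotein that repairs oxidised methionine, rose by log2 1.36 (SE 0.22, adjusted p = 6.27e-05) in the same comparison. At 28 dpn MSRA and TXNRD1 fell against 1 dpn (log2 -1.26 and -1.16, adjusted p = 0.00357 and 0.00251), but with the even arrays neither was called, and other probe sets of both genes were not called. At 188 dpn MSRB3 was higher and MSRB2 lower than at 94 dpc (log2 1.66 and -1.51, adjusted p = 6.58e-07 and 1.51e-06).

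Of 8 genes that make or recycle glutathione or use it on dicarbonyls, 5 rose and 2 fell at 188 dpn against 94 dpc (median 0.82; 5 and 0 after centring or quantile normalization). GLO1, the glyoxalase that removes methylglyoxal, averaged 6968 ± 1227 at 188 dpn and 1591 ± 214 at 94 dpc (log2 2.11, SE 0.24, adjusted p = 3.49e-07). Its rise at 28 dpn against 1 dpn was log2 1.60 (SE 0.22, adjusted p = 1.59e-05), and 2 other GLO1 probe sets gave 2.66 and 3.02. GCLM, the modifier subunit of the first enzyme of glutathione synthesis, was higher at 188 dpn with 433 ± 153, against 88.1 ± 24.2 at 94 dpc (log2 2.07, SE 0.37, adjusted p = 0.000101), and at 1 dpn by 1.86 (SE 0.33, adjusted p = 0.000149). A dim GCLM probe set, with a mean signal of 34.1, gave 0.49 and -0.006 and was not called (adjusted p = 0.314 and 0.992). Glutathione reductase, GSR, was lower at 188 dpn than at 94 dpc (log2 -0.61, SE 0.21, adjusted p = 0.0251), a call that ended after centring or quantile normalization (adjusted p = 0.187 and 0.346).

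Among the other glutathione transferases 4 of 7 rose and 1 fell at 1 dpn against 94 dpc (median 0.65). On the even arrays 2 were higher and 0 lower. The stage mean of GSTA4, relative to 94 dpc, was below that of all 7 at each later stage. At 28 dpn GSTM3 was close to it, with -1.95 against -2.08 for GSTA4. The members were chosen for differences between stages, so this rank is a description. At 1 dpn against 94 dpc GSTK1 rose by log2 1.03 (SE 0.26, adjusted p = 0.00377) and GSTO1 by 1.04 (SE 0.23, adjusted p = 0.00116, and 0.0816 with the even arrays). Microsomal MGST1 fell by -1.67 (SE 0.41, adjusted p = 0.00297, and 0.312 with the even arrays). Nearest to GSTA4 at the end of the series was GSTM3, which fell to 111 ± 29.9 at 188 dpn, against 862 ± 364 at 94 dpc (log2 -2.73, SE 0.51, adjusted p = 0.000183). GSTA1, of the same class as GSTA4, had a mean of 224 ± 149 at 188 dpn and 24.0 ± 14.5, below background, at 94 dpc (adjusted p = 0.000416). Its replicate 4 value at 188 dpn was 440, against at most 182 on any other array, and genes of this class are close in sequence, so its probe set may read more than 1 of them.

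Of 10 other aldehyde dehydrogenases 1 rose and 2 fell at 1 dpn against 94 dpc (median -0.30), 3 rose and 0 fell at 28 dpn against 1 dpn (0.63), 1 rose and 1 fell at 188 dpn against 28 dpn (0.32), and 4 rose and 1 fell at 188 dpn against 94 dpc (0.37). Counts from the even arrays were 0 and 2 at 1 dpn against 94 dpc, and 2 and 0 at 28 dpn against 1 dpn. ALDH1A1, which also makes retinoic acid, fell and then rose between the same stages as ALDH2 (-1.47 and 3.01). ALDH1A1 fell to 203 ± 102 at 1 dpn, against 437 ± 55.6 at 94 dpc (log2 -1.19, SE 0.32, adjusted p = 0.00588), and rose to 565 ± 113 at 28 dpn, against 203 ± 102 at 1 dpn (log2 1.53, SE 0.32, adjusted p = 0.00124). At 188 dpn it averaged 1573 ± 1166 (log2 1.23 over 28 dpn, SE 0.36, adjusted p = 0.0255), but without replicate 4, whose signal was 3294 against at most 1230.4 elsewhere, that difference was 0.80 (adjusted p = 0.133). ALDH1L1, of folate metabolism, likewise had 1169.8 on replicate 4, against at most 239 on any other array (188 dpn minus 94 dpc log2 1.77, SE 0.38, adjusted p = 0.000785).

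ALDH9A1, which acts in carnitine synthesis, averaged 3076 ± 1142 at 188 dpn and 1522 ± 122 at 94 dpc (log2 0.95, SE 0.21, adjusted p = 0.00093). ALDH3A2, the fatty aldehyde dehydrogenase, rose at 1 dpn against 94 dpc (log2 0.76, SE 0.23, adjusted p = 0.0145), but not with the even arrays (0.13, adjusted p = 0.789). ALDH18A1, of proline synthesis, fell to 163 ± 62.1 at 188 dpn, against 1264 ± 177 at 94 dpc (log2 -2.88, SE 0.27, adjusted p = 2.27e-08). Of 9 other enzymes of aldehydes and carbonyls 1 rose and 2 fell at 1 dpn against 94 dpc (median 0.05), 1 and 1 at 28 dpn against 1 dpn (0.26), 0 and 1 at 188 dpn against 28 dpn (-0.19), and 1 and 1 at 188 dpn against 94 dpc (-0.05). PTGR2, a prostaglandin reductase, rose to 3718 ± 964 at 1 dpn, against 1255 ± 225 at 94 dpc (log2 1.53, SE 0.22, adjusted p = 1.41e-05), and fell to 1632 ± 545 at 188 dpn, against 4453 ± 1154 at 28 dpn (log2 -1.46, SE 0.25, adjusted p = 0.000522). The aldehyde reductase AKR1A1 was lower at 188 dpn than at 94 dpc (log2 -1.55, SE 0.33, adjusted p = 0.000743).

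NRF2 is the factor that induces many of these genes under oxidative stress, and 11 of 22 genes of its list were measured. Its own gene NFE2L2 and its inhibitor KEAP1 were not analysed here. Of the 11, 5 rose and 4 fell at 1 dpn against 94 dpc (median 0.70), 4 rose and 2 fell at 28 dpn against 1 dpn (-0.03), 1 rose and 2 fell at 188 dpn against 28 dpn (-0.11), and 4 rose and 1 fell at 188 dpn against 94 dpc (0.63). On the even arrays alone the counts were 4 and 1 at 1 dpn against 94 dpc, and 2 and 2 at 28 dpn against 1 dpn. NQO1, a quinone reductase, rose to 2675 ± 712 at 28 dpn, against 1290.4 ± 763 at 1 dpn (log2 1.24, SE 0.33, adjusted p = 0.00803). Its rise of log2 1.70 at 1 dpn against 94 dpc (adjusted p = 0.000331) was 0.64 with the even arrays (adjusted p = 0.141). SQSTM1, an autophagy receptor, was higher at 188 dpn with 12424 ± 3825, against 5174 ± 2631 at 28 dpn (log2 1.32, SE 0.30, adjusted p = 0.00531). Heme oxygenase HMOX1 was lower at 188 dpn than at 94 dpc (log2 -1.05, SE 0.25, adjusted p = 0.00228). BLVRA, which reduces biliverdin, fell at 1 dpn against 94 dpc (-1.06, SE 0.22, adjusted p = 0.000785) and rose at 28 dpn against 1 dpn (1.38, SE 0.22, adjusted p = 0.000106).

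GPX3 carries selenium, and 17 of 24 listed selenoprotein and selenium genes were measured. Of these 5 rose and 3 fell at 1 dpn against 94 dpc (median 0.15), 1 rose and 6 fell at 28 dpn against 1 dpn (-0.07), 1 rose and 2 fell at 188 dpn against 28 dpn (0.16), and 3 rose and 4 fell at 188 dpn against 94 dpc (0.21). In the last comparison 18.4% of all genes were higher and 27.0% lower. GPX1, TXNRD1 and MSRB1, which rose at 1 dpn against 94 dpc, are on other lists as well. With the even arrays 6 of the 17 were higher and 0 lower at 1 dpn against 94 dpc (median 0.71), and 1 higher and 4 lower at 28 dpn against 1 dpn (-0.71). SELENOW, a small muscle selenoprotein, rose to 3936 ± 1154 at 28 dpn, against 875 ± 370.5 at 1 dpn (log2 2.18, SE 0.23, adjusted p = 1.08e-06), and to 7472 ± 1104 at 188 dpn, against 1724 ± 145 at 94 dpc (log2 2.10, SE 0.26, adjusted p = 1.2e-06). SELENON, needed for muscle integrity, fell to 1409 ± 312 at 188 dpn, against 6271 ± 1233 at 94 dpc (log2 -2.14, SE 0.22, adjusted p = 6.69e-08). SELENOT rose at 1 dpn against 94 dpc and fell at 28 dpn against 1 dpn (log2 1.77 and -1.91, SE 0.28 each, adjusted p = 3.71e-05 and 3.6e-05). SELENOP, the plasma carrier of selenium, was lower at 188 dpn with 5448 ± 1502, against 10354 ± 841 at 94 dpc (log2 -0.96, SE 0.27, adjusted p = 0.00751, and 0.0547 without replicates 1 and 4 of 188 dpn).

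The genes whose levels ran closest to each member over the 22 arrays were found by the root mean square of log2 differences, each gene first centred on its own mean, among 5719 genes above background. For SOD2 they were PYGM, the muscle glycogen phosphorylase (0.38), PPTC7, a mitochondrial phosphatase (0.42), and CRAT, the carnitine acetyltransferase (0.47). For GSTA4 they were APOA1 (0.33), an apolipoprotein also on the liver marker list, the amino acid transporter SLC38A1 (0.39) and VSTM4 (0.40). For ALDH2 they were EGF (0.51), the glycogen-binding STBD1 (0.58) and PDZRN3 (0.59). For GPX3 the closest genes, PDLIM3 (1.08), CMBL (1.08) and GSTA1 (1.11), were farther away. Between the members themselves the distance was 1.62 for GPX3 and ALDH2, the closest pair, and 2.86 for GPX3 and GSTA4, the farthest. The distance is not scaled to the spread of a gene. The SD over the 22 arrays was 1.94 for GPX3, 1.62 for ALDH2, 1.37 for SOD2 and 1.22 for GSTA4. Even the closest pair was thus no nearer than the spread of ALDH2 itself. These values share arrays and scaling and are a description.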

How the data were processed

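The deposited intensity values, linear signals per probe set of a porcine Affymetrix array, came from GCOS 1.1.1 according to the submitters' processing notes. Per the labels, biotinylated cRNA was prepared from 0.5 µg of total RNA treated with DNase. Values spanned 1 to 111760. Every array had a 2% trimmed mean of about 500, and no further scaling was applied. Genome build and detection calls are not given in the sources. Of 24123 probe sets, 124 controls were left out. Of the others 10069 carried 1 symbol, 9961 of them matched to RefSeq genes by identifier, and 13930 carried none or several. Background, 69.7, was the 95th percentile of 23 control probe sets.

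The scale log2(signal + 16) understates changes of dim genes. One model of limma 3.58.1 (R 4.3.3, statmod 1.5.0) held a mean for each of the 4 stages, with moderated variances. Its 2-sided p-values were adjusted by Benjamini-Hochberg over 23999 probe sets per comparison and called under 0.05. A gene was read from its brightest probe set. The members, the 8 pathway lists and the 8 marker lists were chosen with earlier results of these data known. The rule for named genes took, per list and comparison, up to 2 called genes higher and 2 lower by size of change, and 11 partners of the members, 9 of them measured; not all are printed. Alternatives were quantile normalization, centring on array medians, a pseudocount of 1, a filter on dim probe sets, only the stages compared, trended and robust variances, the mean of a gene's probe sets, stage medians, the even arrays of 1 dpn and each array left out. Using the low arrays alone, and leaving out pairs of arrays, was chosen after seeing the data. The method was tested on data simulated for 1 dpn against 94 dpc. It recovered 91.0% of 67 changes of log2 2, 41.8% of 67 of log2 1 and 0% of 66 of log2 0.5, with 2 false calls. The simulated noise was normal, independent and equal in size at each stage. In the data 7836 probe sets were called in this comparison, and the 1 dpn arrays were divided by 5′ signal. These rates need not hold for such data and are not an estimate for them. A gene that was not called may still have changed by a small amount. The number of arrays limits precision.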

Additional observations from a re-analysis of the deposited data

Results flagged for a closer look

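In 4 places 1 array lay far from the others of its stage, by the gap to its neighbour relative to the whole range of the stage. Chance alone does so in about 1 in 20 groups, and among all genes it was so for 6.84%, 11.8%, 8.29% and 7.91% by signal at the 4 stages in order of age. GPX3 on replicate 4 of 188 dpn had a signal of 12559, and the gap below it was 0.93 of the range. GPX3 on replicate 1 of 1 dpn had 1137 (0.81 of the range) and GSTA4 on replicate 6 of 1 dpn had 639 (0.69), and replicates 1 and 6 are those whose GAPDH signal was even at that age. SOD2 on replicate 6 of 94 dpc had the lowest log2 level of its stage, 9.69 (0.65 of the range), where 6.09% of genes had such an array by log2 level. The GAPDH ratio of that array was 1.108, just above the lowest of its stage, 1.102, and the next above it was 1.195. Its part in the SOD2 value was not tested. Without replicate 6 the GSTA4 mean at 1 dpn was 279 ± 59.0 (SD, n = 5), and the difference of 1 dpn minus 94 dpc was log2 -2.37.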

How the results depend on the processing

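No paired analysis was possible because the labels number the 22 animals in 1 run and no stage shares a number with another. Of 296 recomputed differences of the 4 genes 282 moved by less than 1 SD and 14 by more. The SD was that of arrays within the 2 stages compared. Leaving out 1 array cannot move a stage mean by that much, so those runs could only count among the 282 and carry no information here. The 14 all came from the other alternatives. The 11 differences without overlap kept their sign in each alternative run. With the even arrays of 1 dpn, 1 dpn minus 94 dpc was 1.64 for SOD2, 2.45 for GPX3, -1.60 for GSTA4 and -2.19 for ALDH2, and 28 dpn minus 1 dpn was 1.46, -0.44, -0.48 and 3.73. For 188 dpn minus 94 dpc, ALDH2 was 2.66 after quantile normalization and 3.16 after centring, and SOD2 3.15 after centring. Averaging both GSTA4 probe sets gave -1.14, -0.65 and -1.44 for 1 dpn minus 94 dpc, 188 dpn minus 28 dpn and 188 dpn minus 94 dpc, because the dim one lies below background. Fitting only the stages compared gave 3347 called probe sets in place of 5357, and 21 pathway genes in place of 32, at 28 dpn against 1 dpn. With the even arrays 28 pathway genes in place of 45 were called at 1 dpn against 94 dpc, and 21 in place of 32 at 28 dpn against 1 dpn. At 188 dpn against 28 dpn leaving out 1 array in turn gave 11 to 16 pathway genes in place of 18, with 11 without replicate 2 and without replicate 4 of 188 dpn, and leaving out replicates 1 and 4 gave 9; fewer arrays were then fitted. Calls of 2 genes ended with the even arrays, with a difference of the opposite sign that was not called: FTL at 1 dpn against 94 dpc (log2 0.26, against -0.75) and TXNRD3 at 28 dpn against 1 dpn (-0.051, against 1.56, with a mean below background at 1 dpn), and the cause was not tested. Both calls ended in other runs too, 12 of 22 in all for FTL and 14 of 21 for TXNRD3. A second FTL probe set was lower by -1.18 with all arrays (adjusted p = 1.75e-05). Of 94 called differences of named pathway genes, 48 held in every alternative run and 46 ended in at least 1. Calls that held could still move in size. At 1 dpn against 94 dpc SELENOT ranged from log2 0.81 to 2.25 over the runs, NNT from 1.51 to 2.83 and GCLM from 0.93 to 2.77. The even arrays ended 21 of the 47 that involve 1 dpn, and leaving out replicates 1 and 4 ended 14 of the 47 that involve 188 dpn. The promoter search that had been planned was not run, since promoter sequences were not analysed here.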

Other observations

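Other genes among the 13 with larger gaps than GPX3 on replicate 4 of 188 dpn over the remaining 3 arrays of that stage are given as examples chosen after their values were seen. DAO, a D-amino acid oxidase, had a signal of 773 there, against at most 59.3 on the other 3. The urea cycle enzyme ASS1 had 11165, against at most 1200.1, the amino acid aminotransferase AGXT2 had 1396, against at most 138, and the cytochrome CYP2C33 had 12269, against at most 1527. KCNJ1, a potassium channel of the kidney tubule, had 216, against at most 11.9. In all, 187 of 6765 genes were at least log2 1 and 54 at least log2 2 above the other 3 arrays, whereas each of the other 21 arrays, set against its own stage in the same way, had 3 to 161 and 0 to 24 such genes. The other stages hold more arrays to exceed, so counts compare best within 188 dpn. There replicates 1, 2 and 3 had 126, 55 and 56 genes at log2 1, and 10, 6 and 1 at log2 2. The counts of 161 and 24 were from replicate 1 of 1 dpn, an even array. By the gap on replicate 4 of 188 dpn SOD2, GSTA4 and ALDH2 ranked 1245, 5031 and 4305 of 6765, against 14 for GPX3.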
